A study of Mus musculus with 87 samples.

Results

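The genes described here are 9 genes of myelin and the oligodendrocyte: Mbp, Mobp, Mal, Mag, Mog, Cnp, Ugt8a, Padi2 and Klk6. Every probe set that the array annotation assigned to 1 of them alone, by current symbol or synonym, was taken, which gave 14 of the 12422 probe sets on the array that were not controls. Of these, 12 probe sets for 8 genes were bright enough to be tested, and where a gene had several, they are lettered here in the order of their identifiers (Mbp A and B, Mobp A to D). Gene expression had been measured on 87 Affymetrix MG_U74Av2 arrays in wild-type male mice aged 8 weeks. The 6 inbred strains were C57BL/6J, FVB/NJ, DBA/2J, 129S6/SvEvTac, C3H/HeJ and A/J. RNA came from 7 tissues, namely the periaqueductal gray, the bed nucleus of the stria terminalis, the hippocampus, the hypothalamus, the cingulate cortex, the amygdala and the pituitary gland, and no animal had been given a treatment according to the labels. There were 42 groups of strain and tissue, 39 with 2 arrays and 3 with 3 arrays, and each array held RNA of 1 to 5 mice. Amygdala and cingulate cortex RNA (26 arrays) had been amplified in 2 rounds from 50 ng, whereas 10 µg had been labelled for the other tissues (61 arrays).

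Myelin is the multilayered membrane that oligodendrocytes wrap around axons of the central nervous system. Mbp and Mobp encode abundant proteins of its compacted layers, Mal encodes a small membrane proteolipid of myelin, and Mag and Mog encode adhesion and surface glycoproteins at its innermost and outermost faces. Cnp encodes the cyclic nucleotide phosphodiesterase of uncompacted myelin, and Ugt8a the transferase that makes galactosylceramide, a characteristic myelin lipid. Padi2 encodes the enzyme that converts arginine of myelin basic protein and other proteins to citrulline, and Klk6 a secreted serine protease of oligodendrocytes. Oligodendrocytes take their fate under the transcription factors Olig2 and Sox10, and Myrf drives their myelin genes.

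Promoter sequences are shown for the 7 tested genes other than Mbp, so that those with and without the motifs below can be compared. RefSeq windows of 300 bases around the annotated start (GRCm38.p6) were taken for 8 of the 9 genes, with 11 windows in all. Mbp was left out by choice, so it is neither shown nor in the member counts. Capitals mark the letters of a SOX factor motif, ACAAAG, or of a MYRF motif, CTGGCAC or CTGGTAC, found on either strand (CTTTGT for the first and GTGCCAG or GTACCAG for the second on the other strand). Sequences run 5′ to 3′ along the gene's strand. Where a gene has several windows, the first listed is shown. The windows are Mobp at chr9:120149492-120149791 (plus strand), Mal at chr2:127656646-127656945 (minus strand), Mag at chr7:30914814-30915113 (minus strand), Mog at chr17:37023349-37023648 (minus strand), Ugt8a at chr3:125938603-125938902 (minus strand), Klk6 at chr7:43824294-43824593 (plus strand) and Padi2 at chr4:140906110-140906409 (plus strand).
Mobp: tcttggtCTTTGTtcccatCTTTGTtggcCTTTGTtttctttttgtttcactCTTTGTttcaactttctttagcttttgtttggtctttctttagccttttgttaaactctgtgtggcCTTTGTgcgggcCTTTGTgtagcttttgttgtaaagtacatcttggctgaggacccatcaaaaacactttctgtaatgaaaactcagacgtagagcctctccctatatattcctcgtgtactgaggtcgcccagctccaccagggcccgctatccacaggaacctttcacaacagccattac
Mal: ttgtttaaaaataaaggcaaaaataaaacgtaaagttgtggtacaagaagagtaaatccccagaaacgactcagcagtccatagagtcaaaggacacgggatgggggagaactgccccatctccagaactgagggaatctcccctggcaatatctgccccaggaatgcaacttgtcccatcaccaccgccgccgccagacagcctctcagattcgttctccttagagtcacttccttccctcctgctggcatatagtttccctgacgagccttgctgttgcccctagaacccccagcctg
Mag: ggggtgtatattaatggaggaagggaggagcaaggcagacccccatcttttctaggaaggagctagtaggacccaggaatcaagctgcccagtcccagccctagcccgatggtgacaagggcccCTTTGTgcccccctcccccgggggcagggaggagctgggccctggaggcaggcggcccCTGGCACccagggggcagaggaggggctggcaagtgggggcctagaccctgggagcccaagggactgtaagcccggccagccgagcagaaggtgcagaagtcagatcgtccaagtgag
Mog: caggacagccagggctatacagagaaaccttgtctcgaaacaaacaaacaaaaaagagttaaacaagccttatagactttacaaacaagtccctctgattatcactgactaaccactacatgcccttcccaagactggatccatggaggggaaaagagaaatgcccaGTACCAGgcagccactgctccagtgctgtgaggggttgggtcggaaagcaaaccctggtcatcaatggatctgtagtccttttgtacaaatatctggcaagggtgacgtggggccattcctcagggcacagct
Ugt8a: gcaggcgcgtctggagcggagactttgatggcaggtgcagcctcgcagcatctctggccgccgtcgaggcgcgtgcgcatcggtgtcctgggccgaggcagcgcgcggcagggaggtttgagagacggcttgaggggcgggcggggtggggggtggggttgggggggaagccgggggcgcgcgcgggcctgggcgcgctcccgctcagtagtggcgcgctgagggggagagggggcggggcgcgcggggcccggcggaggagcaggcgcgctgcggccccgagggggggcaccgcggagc
Klk6: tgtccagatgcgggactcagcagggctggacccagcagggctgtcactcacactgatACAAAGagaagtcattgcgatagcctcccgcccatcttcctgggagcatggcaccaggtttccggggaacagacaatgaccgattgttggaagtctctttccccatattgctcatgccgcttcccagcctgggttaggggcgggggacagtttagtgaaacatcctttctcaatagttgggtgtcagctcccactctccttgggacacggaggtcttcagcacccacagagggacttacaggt
Padi2: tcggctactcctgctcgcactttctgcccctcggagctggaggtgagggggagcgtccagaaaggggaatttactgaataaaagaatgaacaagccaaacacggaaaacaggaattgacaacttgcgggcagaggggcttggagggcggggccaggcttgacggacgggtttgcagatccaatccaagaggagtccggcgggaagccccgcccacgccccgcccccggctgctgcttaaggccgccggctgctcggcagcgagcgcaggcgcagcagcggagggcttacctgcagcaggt

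The SOX motif was present in 5 of the 11 windows, against 18.7% of all 32851 RefSeq promoter windows, and the MYRF motif in 4 of 11 against 7.1%. The Mobp window held 6 copies of the SOX motif, all in the reverse orientation, and it was the only 1 of the 32851 windows with 6 or more. Both Mag windows that overlap at the start shown held the same 1 copy of each motif, so these copies enter the counts with each window. The Cnp window also held 1 copy of each motif, and the Mog window held 1 MYRF motif. The Klk6 window shown held 1 SOX motif, and the windows of Mal, Ugt8a and Padi2 held neither. No copy of the one motif overlapped a copy of the other in the windows shown. These are matches of letters only.

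The values are intensities on a linear scale, and tests used log2(intensity + 16) with negative values set to 0, so folds of dim probe sets are understated. Array medians ranged from 42.3 to 66.1 and replicate arrays correlated at 0.953 to 0.992 over 48 pairs. Of the 12 pituitary arrays, the 4 labelled C3H/HeJ and FVB/NJ carried each other's strain profile (correlation with their own label -0.32 to -0.283, with the other strain 0.857 to 0.892), so strains were averaged over the 6 brain regions alone. One pituitary array, labelled FVB/NJ replicate 2, also stood apart in myelin signal and is described with the pituitary gland. The 3′ to 5′ ratio of the Gapdh control probe sets was 2.68 ± 0.35 on the log2 scale (SD, n = 26) on the amplified arrays and -0.07 ± 0.13 (SD, n = 49) on the brain arrays labelled from 10 µg. Tissue and labelling cannot be told apart between these sets, so tissues were compared only within each.

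Among the 4 brain regions labelled from 10 µg, Mbp B and Mobp had higher medians in the periaqueductal gray and bed nucleus than in the hippocampus and hypothalamus. Mbp A ranked the regions differently and is described below. Mbp B ranged from 3455 to 5836 in the periaqueductal gray (median 4706, n = 12) and from 2794 to 5067 in the bed nucleus (median 4263, n = 13). In the hippocampus it ranged from 2219 to 4139 (median 3435, n = 12), and in the hypothalamus from 1964 to 4367 (median 3213, n = 12). All 4 regions therefore overlapped in Mbp B. Against the mean of the other 3 regions it was higher in the periaqueductal gray by 0.40 log2 (SE 0.16, adjusted p 0.0423 by limma). That call was lost in 8 of 15 alternative analyses, among them that with scan day as a block (adjusted p 0.204 by limma). For Mbp B the other 3 regions gave no call by limma. The differences were 0.20 log2 in the bed nucleus (adjusted p 0.479), -0.24 in the hippocampus (0.225) and -0.36 in the hypothalamus (0.0737). The bed nucleus and the periaqueductal gray differed in Mbp B by -0.15 log2, with an interval from -0.54 to 0.24.

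Mobp was read by 4 probe sets, of which B separated the periaqueductal gray and the hypothalamus most widely. On Mobp B the periaqueductal gray arrays ranged from 1786 to 3374 (median 2417), the bed nucleus arrays from 1460 to 3123 (median 2092), the hippocampus arrays from 1044 to 2670 (median 1252) and the hypothalamus arrays from 683 to 1926 (median 1018). The ranges of the periaqueductal gray and the hypothalamus overlapped only at their ends. The hypothalamus was 2.30-fold lower than the periaqueductal gray on this probe set (adjusted p 7.07e-07 by limma). In that comparison 11 of the 12 probe sets were lower (background 14.5%) and 1 was higher (16.1%). All 4 Mobp probe sets were higher in the periaqueductal gray than in the mean of the other 3 regions, by 0.46 to 0.73 log2, and lower in the hypothalamus, by -0.87 to -0.64 log2. For none of the 4 was the bed nucleus called different from the periaqueductal gray, the difference lying between -0.17 and -0.01 log2.

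Mal followed the same order with the bed nucleus first. Its median intensity was 502 in the bed nucleus (331 to 683), 439 in the periaqueductal gray (319 to 557), 304 in the hippocampus (210 to 576) and 260 in the hypothalamus (159 to 437). The bed nucleus was 1.49-fold above the mean of the other 3 regions (log2 difference 0.57, SE 0.09, adjusted p 2.61e-06 by limma), and its difference from the periaqueductal gray was not called (0.23 log2, interval 0.00 to 0.46, adjusted p 0.152). The hippocampus exceeded the hypothalamus in Mal by 0.34 log2 (adjusted p 0.0139).

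The glycoprotein genes Mag and Mog also had higher medians in the periaqueductal gray and the bed nucleus than in the hippocampus and the hypothalamus. Mag ranged from 335 to 771 in the periaqueductal gray (median 599), from 295 to 703 in the bed nucleus (median 489), from 161 to 561 in the hippocampus (median 262) and from 126 to 396 in the hypothalamus (median 218). Only 2 hypothalamus arrays, both C57BL/6J, exceeded the lowest periaqueductal gray array. Mag was 1.82-fold higher in the periaqueductal gray than in the mean of the other 3 regions (log2 difference 0.87, SE 0.13, adjusted p 2.37e-07 by limma) and 1.80-fold lower in the hypothalamus (adjusted p 4.38e-07). Mog had nearly equal medians of 314 in the periaqueductal gray and 311 in the bed nucleus, against 182 in the hippocampus and 171 in the hypothalamus. Its difference between the first pair was 0.01 log2 (interval -0.22 to 0.25), and between the hippocampus and the hypothalamus 0.07 log2 (interval -0.17 to 0.31).

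Ugt8a, the galactosylceramide synthase gene, took the same order as Mag. Its median was 164 in the periaqueductal gray (94.4 to 223), 138 in the bed nucleus (88.0 to 180), 93.5 in the hippocampus (52.9 to 121) and 76.9 in the hypothalamus (54.1 to 107). It was 1.56-fold higher in the periaqueductal gray than in the mean of the other 3 regions (adjusted p 3.25e-09 by limma). In bulk tissue, fewer oligodendrocytes and less RNA of a gene per oligodendrocyte cannot be told apart, here or in any comparison that follows.

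Klk6, the protease gene, had the largest differences between these 4 regions among the 12 probe sets. Its intensity was 68.5 to 178 in the periaqueductal gray (median 159), 28.4 to 78.2 in the bed nucleus (median 41.7), 10.2 to 58.7 in the hypothalamus (median 26.7) and 1.85 to 38.2 in the hippocampus (median 12.1). No hippocampus or hypothalamus array reached the lowest periaqueductal gray array. The periaqueductal gray was 3.51-fold above the mean of the other 3 regions (log2 difference 1.81, SE 0.14, adjusted p 8.44e-16 by limma), and 2.46-fold above the bed nucleus (adjusted p 2.28e-08). The hippocampus was 2.50-fold below the mean of the others (adjusted p 1.1e-11), with values close to background. These were the only 2 calls of the 12 probe sets at 2-fold or more when each of the 4 regions was set against the other 3 (background over all probe sets 1.84% of tests), and with an offset of 64 in place of 16 the count was 1. The log2 difference of Klk6 in the periaqueductal gray was 1.1 with an offset of 64 and 2.25 with 4. Klk8, a related protease gene known from hippocampal neurons, ran the other way, with 1.63 log2 in the hippocampus (SE 0.10, adjusted p 1.14e-20) and -0.66 in the periaqueductal gray (SE 0.10, adjusted p 1.81e-07).

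Padi2, the citrullinating enzyme gene, departed from the order of the structural genes. Its median was 147 in the periaqueductal gray (113 to 324), 106 in the hippocampus (55.2 to 160), 93.1 in the bed nucleus (42.3 to 205) and 87.9 in the hypothalamus (66.4 to 294). The wide ranges of the periaqueductal gray and hypothalamus arrays follow the strains, described with the strain comparisons. The periaqueductal gray was 1.51-fold above the mean of the other 3 regions (adjusted p 4.42e-07 by limma), and the bed nucleus, where most structural genes were high, was 1.27-fold below (adjusted p 0.00361). Between the bed nucleus and the periaqueductal gray, Klk6 and Padi2 were the 2 probe sets called, both lower in the bed nucleus (background 11.1%), and none were higher (9.81%). Between the hippocampus and the hypothalamus 4 were called in either direction, a share below the background (44.1%). Of these, Mal, Mobp A and Mbp A were higher in the hippocampus (19.1%) and Klk6 was lower.

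Without the 2-fold minimum, 11 of the 12 probe sets were called higher in the periaqueductal gray (background 19.9%) and 1 lower (20.7%). In the bed nucleus 8 were higher (7.52%) and 2 lower (7.4%), in the hippocampus 1 was higher (21.7%) and 8 lower (27.3%), and in the hypothalamus 10 were called in either direction (34.5%), 1 higher (18.5%) and 9 lower. The same arrays enter each comparison, so these counts are not independent. With scan day as a random block, the calls of Mobp D, Mobp B, Mobp C and Mag in the bed nucleus were lost (adjusted p 0.228, 0.199, 0.0907 and 0.112 by limma). In the periaqueductal gray the block took the calls of Mbp B, Mal (0.108) and Mobp D (0.0832). In the hippocampus it took those of Mobp D (0.219), Mobp B (0.203), Mobp C (0.104) and Padi2 (0.193), and in the hypothalamus that of Mbp A (0.0615), the 1 higher call there. Arrays of the same strain and scan day gave the periaqueductal gray minus the bed nucleus in 4 sets, in which Klk6 was higher each time by 0.80 to 1.55 log2, and Padi2 by 0.34 to 1.02, while Mal differed by -0.71 to -0.25.

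**Figure D1:**
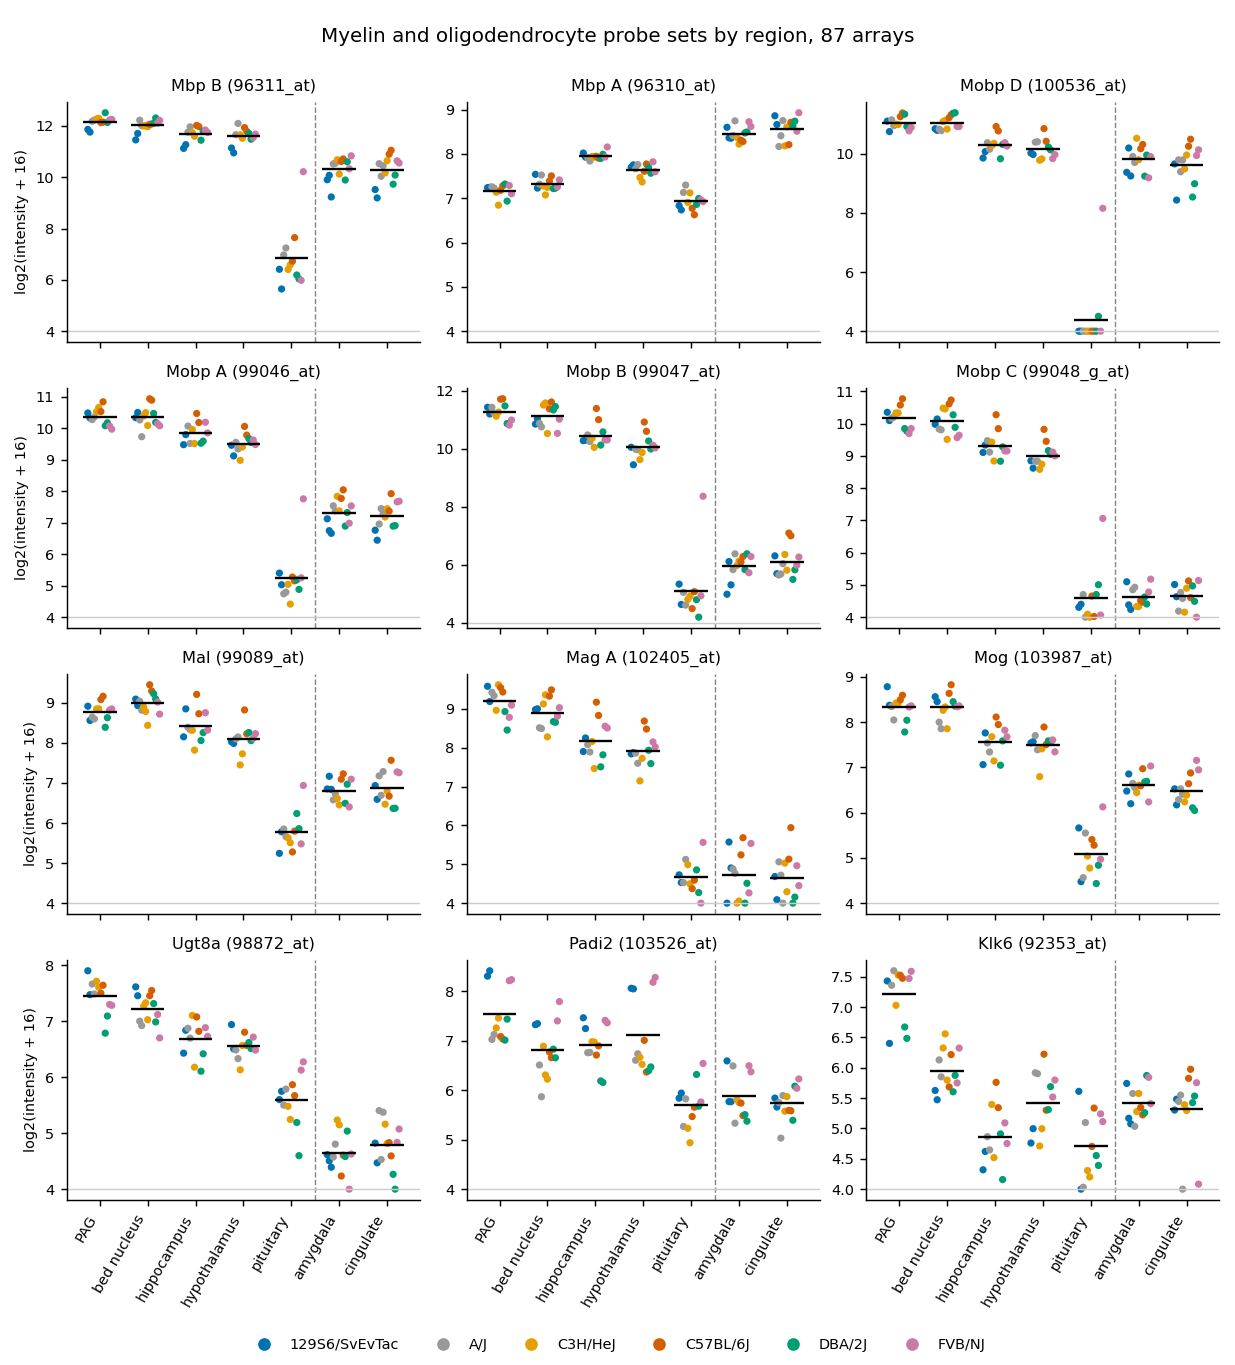
Intensity of the 12 tested probe sets as log2(intensity + 16) on all 87 arrays, 1 panel per probe set, with a dot per array coloured by strain and a black line at the mean of each tissue. The dashed line parts tissues labelled from 10 µg (left) from those amplified in 2 rounds (right), and the gray line marks an intensity of 0. Most panels step down from the periaqueductal gray (PAG) and bed nucleus to the hippocampus, hypothalamus and pituitary gland, Klk6 stands highest in the PAG, and Mbp A runs differently.

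The 2 Mbp probe sets ranked the 4 regions differently. On Mbp A the hippocampus was highest of the 4 regions, with 213 to 269 (median 228), followed by the hypothalamus with 149 to 210 (median 189), the bed nucleus with 119 to 170 (median 139) and the periaqueductal gray with 98.7 to 144 (median 135). No hippocampus array overlapped the bed nucleus or the periaqueductal gray, and of the hypothalamus arrays only the 2 of C3H/HeJ lay within the range of the bed nucleus. The hippocampus was 1.48-fold above the mean of the other 3 regions on Mbp A (adjusted p 1.33e-13 by limma), and the periaqueductal gray 1.39-fold below (adjusted p 1.16e-10). Over the 24 group means of these regions, which share strains and arrays, Mbp A correlated at -0.71 with the mean profile of the other genes, whereas Mbp B correlated at 0.66. On the amplified arrays Mbp A had a median of 325 for amygdala and of 381 for cingulate cortex RNA, and Mbp B of 1451 and 1376. The Mbp locus also makes longer transcripts, called Golli, which neurons and lymphoid cells express. The annotation used here does not say which transcripts either probe set reads.

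**Figure D2:**
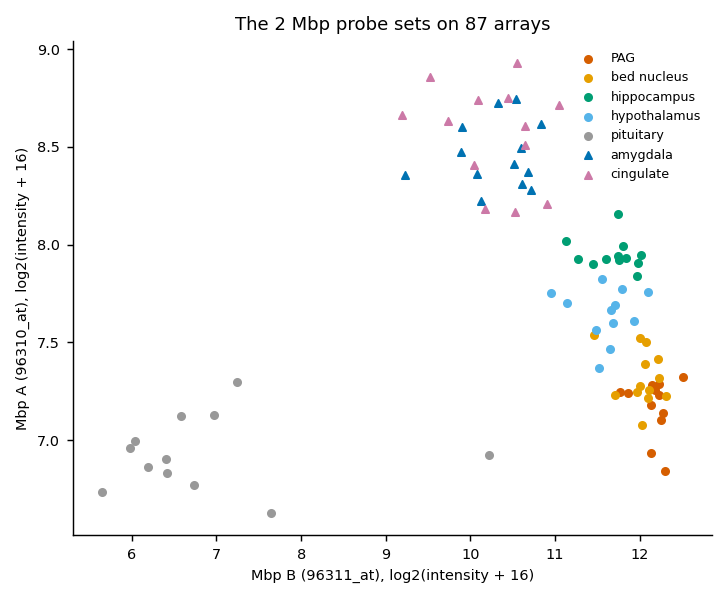
Mbp B (horizontal axis) against Mbp A (vertical axis), both as log2(intensity + 16), 1 point per array, coloured by tissue, with triangles for the 2 tissues amplified in 2 rounds. Among the tissues labelled from 10 µg, hippocampus arrays lie above all others on the vertical axis. Hypothalamus arrays lie above periaqueductal gray (PAG) arrays and overlap bed nucleus arrays there. On the horizontal axis the brain regions overlap, with lower medians in the hippocampus and hypothalamus, and pituitary arrays are low on both axes.

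Other genes of the lineage were counted from lists. Of 24 further oligodendrocyte and myelin genes tested, 17 were higher and 2 lower in the periaqueductal gray (median 0.33 log2, all probe sets -0.03), and 18 were higher and 1 lower in the bed nucleus (median 0.27, all probe sets -0.01). In the hippocampus none were higher and 17 lower, and in the hypothalamus 2 were higher and 16 lower. In the periaqueductal gray Nkx6-2, a homeobox factor of oligodendrocytes, was higher by 0.72 log2 (SE 0.09, adjusted p 1.89e-09 by limma), and Qdpr, the dihydropteridine reductase gene, by 0.60 (SE 0.05, adjusted p 2.67e-13). Of 14 cholesterol synthesis genes tested, which supply the main sterol of myelin and of other membranes, 13 were higher in the periaqueductal gray and 12 lower in the hippocampus. Among them Idi1 was higher in the periaqueductal gray by 0.71 log2 (adjusted p 3.94e-14) and Fdps by 0.68 (adjusted p 3.04e-13). In the bed nucleus, by contrast with the myelin genes, none of the 14 were higher and 2 were lower.

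Of the 3 tested genes of the oligodendrocyte precursor, all were lower in the pituitary gland (median -1.04 log2). Pdgfra, the platelet-derived growth factor receptor of that cell, was lower in the periaqueductal gray (-0.23 log2, adjusted p 0.00323 by limma), Vcan differed by 0.04 (adjusted p 0.752) and Sox6 by 0.04 (adjusted p 0.671). Markers of other cell types also moved with the region. In the periaqueductal gray 8 of 10 neuron markers were higher and 1 lower, and 4 of 8 astrocyte markers were higher and 1 lower. All 9 microglia markers were lower there (background of all probe sets 19.9% higher and 20.7% lower). The summed intensity of the microglia markers was 1105 to 1615 in the periaqueductal gray and 1560 to 2169 in the hippocampus. That of the neuron markers was 15420 to 17380, against 11030 to 13240 in the hypothalamus, and that of the astrocyte markers was 7844 to 9808 against 6550 to 8268. In the bed nucleus all 5 choroid plexus markers were higher, with a summed intensity of 98.9 to 5273 against 78.6 to 142 in the periaqueductal gray. The part of these markers in the myelin gene differences was not tested.

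In the pituitary gland, whose anterior lobe lacks myelinating oligodendrocytes, all 12 probe sets were lower than in the mean of the 4 brain regions labelled from 10 µg (background 37.5%), and 11 were called at 2-fold or more (background 10.8%). Mbp B ranged from 34.0 to 185 on 11 of the 12 arrays and was 1175 on the other. Mobp D was at most 6.64 on 11 arrays and 269 on the other. All pituitary arrays lay below all arrays of the 4 brain regions on both probe sets. Over all 12 arrays the log2 difference was -5.03 for Mbp B (SE 0.16), and -5.38 without that array. For Mobp D, at background on 11 arrays, it was -6.24 with the offset of 16, -8.00 with 4 and -4.47 with 64, so that its size is set by the offset. Mag differed by -3.87, Mog by -2.84 and Mal by -2.81 log2. Ugt8a differed by -1.38, Padi2 by -1.40 and Klk6 by -1.14, and Mbp A, by -0.60, stayed under 2-fold. Most of these probe sets read near background in the pituitary gland, where a difference is bounded by how bright a probe set was in brain, so the sizes are not compared between them. With an offset of 64 the count at 2-fold was 8. Adjusted p by limma was at most 8.58e-11 for the 12.

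The array that stood apart was that labelled FVB/NJ replicate 2. On it Mobp A read 200 (at most 26.2 on the other 11 arrays), Mobp B 313 (at most 24.2) and Mobp C 118 (at most 16.1). Mal read 107 (at most 59.4), Mog 53.9 (at most 34.6) and Mag 31.3 (at most 18.9), while Mbp A read 105, inside the range of the others. In all, 10 of the 12 probe sets were highest on this array, as were 8.92% of all probe sets. Of 24 further oligodendrocyte and myelin genes, 6 were highest on it, among them Car2, a carbonic anhydrase gene, at 182 (at most 92.2) and Cldn11, which encodes a claudin of myelin tight junctions, at 113 (at most 65.3), whereas Erbb3 read 103, inside the range of the others (98.01 to 164). The list's median difference from the median of the other arrays was 0.23 log2, against 0.25 for 9 microglia markers, 0.34 for the 3 precursor genes and 0.17 for 8 pituitary markers. Of 8 astrocyte markers 3 were highest on it, and of 10 neuron markers none. Its Padi2 and Ugt8a values, 77.0 and 61.4, were also the highest of the 12, and Cnp, not tested for dimness, read 14.9 (at most 6.80). Whether the array held tissue other than pituitary gland was not tested.

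**Figure D3:**
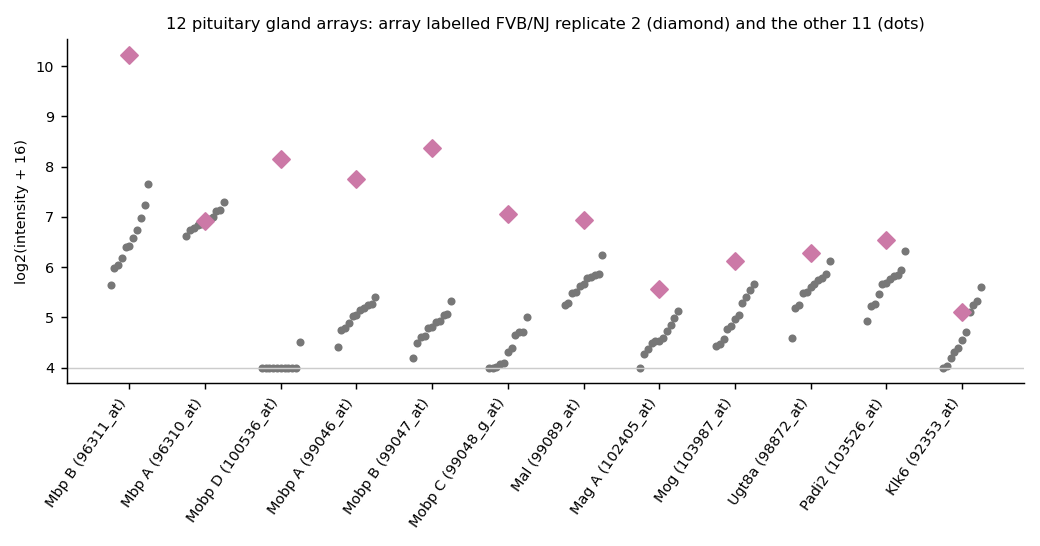
The 12 pituitary arrays on each tested probe set as log2(intensity + 16), with the array labelled FVB/NJ replicate 2 as a diamond and the other 11 as dots in rising order. The gray line marks an intensity of 0. The diamond lies far above the dots for Mbp B and the 4 Mobp probe sets, above them by less for Mal, Mag, Mog, Ugt8a and Padi2, and among them for Mbp A and Klk6.

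In the amplified tissues no probe set was called between the amygdala and the cingulate cortex, with or without the 2-fold minimum (background 17.4% higher and 17.2% lower without it, 0.745% and 0.863% with it). The differences lay between -0.13 and 0.23 log2 by limma, and the smallest unadjusted p was 0.0667. The widest interval, that of Mobp D, ran from -0.16 to 0.62. Several probe sets read at or near background on these arrays. Mag had a median of 11.3 in the amygdala and the cingulate cortex gave 9.74, Ugt8a of 8.36 and 12.3, and Mobp C 6.85 and 8.83. Mobp D, in contrast, had medians of 942 and 870, and Mog 81.4 and 68.9. For the dim probe sets a regional difference was not detectable on these arrays.

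Between strains, averaged over the 6 brain regions, 11 of the 12 probe sets differed by limma's F test (background 39.3%), and 6 with scan day as a random block. Klk6 was the exception (adjusted p 0.0767). C57BL/6J stood out for the structural genes: against the mean of the other 5 strains 7 probe sets were higher (background 9.61%) and 1 lower (9.82%). The 7 were those of Mag, Mal, Mog and all 4 of Mobp, and the 1 was that of Padi2. No probe sequences were at hand, so whether each probe set reads the RNA of all strains alike was not tested, here or in any strain comparison below.

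Mag was the member with the largest difference in C57BL/6J. The 2 C57BL/6J arrays read 561 and 439 in the hippocampus, where the other 10 ranged from 161 to 360, and 396 and 341 in the hypothalamus, where the others ranged from 126 to 268. In the bed nucleus they read 627 and 703 against 295 to 642, and in the periaqueductal gray 732 and 675 against 335 to 771. The groups were thus apart in the hippocampus and hypothalamus and overlapped in the bed nucleus and periaqueductal gray. Mag also did not overlap in the cingulate cortex, at intensities of 19.1 and 45.5 that lie near background. Averaged over regions, Mag was 1.72-fold higher in C57BL/6J (log2 difference 0.78, SE 0.12, adjusted p 1.98e-06 by limma), with C57BL/6J the highest strain in 6 of 6 regions.

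Mobp B read 2670 and 2039 in the C57BL/6J hippocampus against 1044 to 1519 on the other 10 arrays, and 3340 and 3374 in the periaqueductal gray against 1786 to 2841. In the hypothalamus it read 1926 and 1540 against 683 to 1219, and in the cingulate cortex 121 and 112 against 29.0 to 65.8. C57BL/6J arrays therefore lay above all others in 4 of the 6 brain regions, all but the bed nucleus and amygdala. Every C57BL/6J array lay above every other array for 6 of the 12 probe sets in the hippocampus (background 4.33%), 5 in the hypothalamus (6.21%), 5 in the cingulate cortex (5.22%), 3 in the periaqueductal gray (3.17%), 4 in the bed nucleus (4.09%) and none in the amygdala (3.66%). The fold of Mobp in C57BL/6J was 1.60 on Mobp B (adjusted p 0.00029 by limma), 1.46 on A, 1.46 on D and 1.42 on C. Without the amplified regions the call of Mobp D was lost (0.46 log2, adjusted p 0.0812 by limma). With an offset of 4 the calls of Mobp D (adjusted p 0.0689 by limma) and Mobp C (0.0833) were lost. Mal was 1.37-fold higher (adjusted p 9.61e-05) and Mog 1.27-fold (adjusted p 0.00523). Mbp B differed by 0.32 log2 (SE 0.15, adjusted p 0.133), Klk6 by 0.35 (SE 0.13, adjusted p 0.0518) and Ugt8a by 0.11 (SE 0.08, adjusted p 0.354).

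Scan day and strain were partly confounded, so strains were also compared among arrays of 1 region scanned on the same day. C57BL/6J could be set against other strains in 5 such sets, of which 4 held 129S6/SvEvTac, the low strain for Mbp B, and 3 held no other strain besides it. Mag was higher in 5 of 5 (by 0.11 to 1.45 log2), Mal in 5 of 5 (0.38 to 0.62), each Mobp probe set in 5 of 5, Mbp B in 5 of 5 (0.27 to 1.78) and Mog in 4 of 5. The upper ends for Mag and Mbp B came from the cingulate cortex set, which held only 1 array of 129S6/SvEvTac. Mag read near background there. In the hippocampus set, which held 4 other strains but not 129S6/SvEvTac, Mag was higher by 0.89 log2, Mobp B by 0.82, Mal by 0.62, Mog by 0.46 and Mbp B by 0.27. With scan day as a random block, the calls of Mog (adjusted p 0.0841 by limma) and of Mobp C (adjusted p 0.0929) were lost. All C57BL/6J arrays had been scanned more than once, whereas 26 arrays of the other strains had been scanned once, and with the number of scans as a term, added after the data were seen, the 7 higher probe sets kept their calls and Padi2 did not (-0.27 log2, adjusted p 0.0704).

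Other lists moved with C57BL/6J. Of the 24 further oligodendrocyte and myelin genes, 13 were higher in this strain and none lower (median 0.23 log2, all probe sets -0.02). Apod, an apolipoprotein gene, was higher by 0.71 log2 (SE 0.08, adjusted p 2.5e-09 by limma), Sgk1, a kinase gene, by 0.55 (SE 0.10, adjusted p 4.46e-05) and Nkx6-2 by 0.40 (SE 0.08, adjusted p 0.000298). Of 14 cholesterol synthesis genes 3 were higher, Sc5d by 0.89 log2, Msmo1 by 0.59 and Cyp51 by 0.41, and none were lower. None of the 3 precursor genes were called. Of 9 microglia markers 4 were higher, led by the complement genes C1qb (1.06 log2) and C1qc (0.81), and of 8 astrocyte markers 3 were higher. Summed microglia marker intensity was 1526 to 3236 on the 12 C57BL/6J arrays and between 1105 and 3940 on arrays of the other strains, and summed astrocyte marker intensity was 6555 to 8248 against 5477 to 9808. The part of these cells in the myelin gene difference was not tested.

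**Figure D4:**
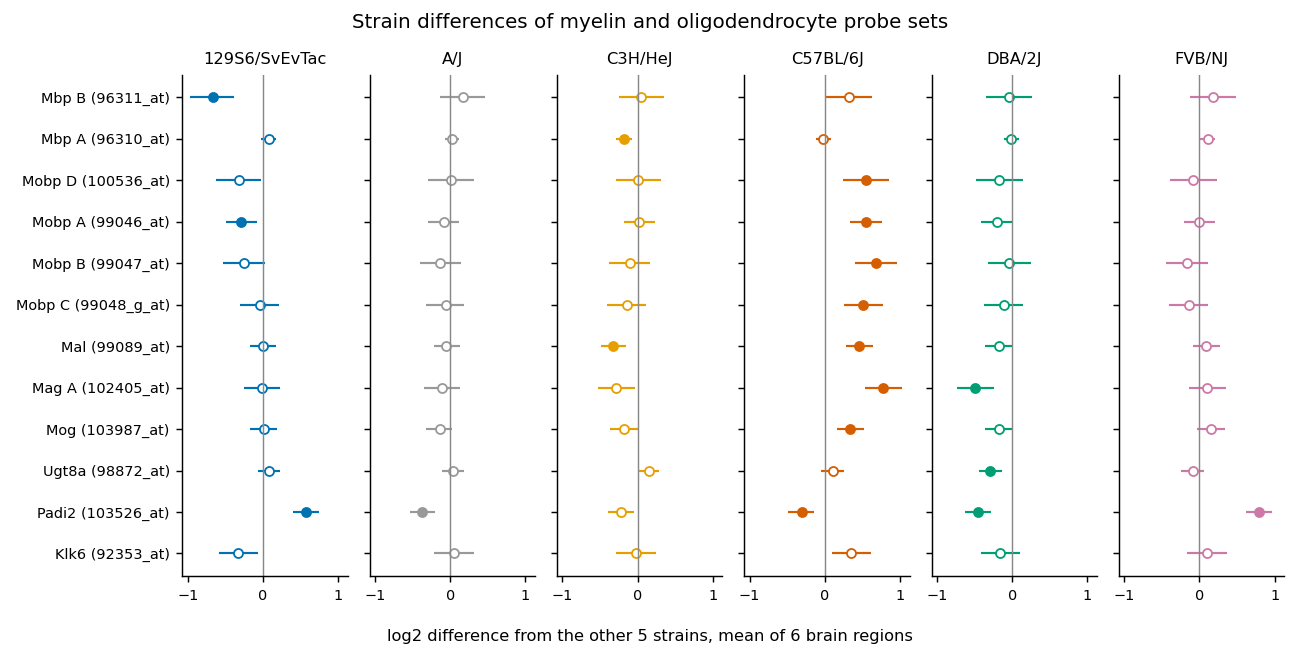
Difference of each strain from the mean of the other 5, averaged over the 6 brain regions, on the log2 scale, for the 12 tested probe sets. Lines are 95% intervals from limma, and filled points have an adjusted p below 0.05. In the C57BL/6J panel the 4 Mobp probe sets, Mal, Mag and Mog lie to the right of 0 and Padi2 to the left, and Padi2 lies farthest right in FVB/NJ and 129S6/SvEvTac.

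In 129S6/SvEvTac 1 probe set was higher (background 7.75%), that of Padi2, and 2 were lower (7.64%). The clearer of the latter was Mbp B, whose 129S6/SvEvTac arrays read 2794 and 3328 in the bed nucleus against 4000 to 5067 on the other 11, and 2219 and 2455 in the hippocampus against 2770 to 4139. In the hypothalamus they read 2242 and 1964 against 2848 to 4367, and in the periaqueductal gray 3715 and 3455 against 4469 to 5836. The strain lay below every other array in 5 of 6 brain regions and overlapped with the others in the amygdala. The share of all probe sets with such a separation in this strain was not counted, so the 5 regions have no background beside them. Averaged over regions, Mbp B was 1.59-fold lower (log2 difference -0.67, SE 0.15, adjusted p 0.000713 by limma), and lower than each of A/J, C57BL/6J, C3H/HeJ and FVB/NJ in pairs, while against DBA/2J the difference was -0.53 log2 (adjusted p 0.0614). Without the amplified regions it was -0.55 (adjusted p 0.0572). The other lower probe set, Mobp A (-0.29 log2, adjusted p 0.0462), lost its call in 16 of 23 alternatives and was -0.09 without the amplified regions. Mbp A differed in this strain by 0.08 log2 (adjusted p 0.301).

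Padi2 had the highest F statistic among strains of the 12 probe sets (32.7, adjusted p 3.66e-13 by limma). Its widest difference between a pair of strains, 2.06-fold between FVB/NJ and DBA/2J, was close to the widest of Mag, 2.09-fold. In the hypothalamus its intensity was 250 and 248 in 129S6/SvEvTac and 273 and 294 in FVB/NJ, while the 8 arrays of the other 4 strains ranged from 66.4 to 112. In the periaqueductal gray it was 299 and 324 in 129S6/SvEvTac and 280 and 284 in FVB/NJ, against 113 to 159. In the hippocampus the arrays of these 2 strains read 135 to 160 against 55.2 to 110, and in the bed nucleus 144 to 205 against 42.3 to 102. The arrays of 129S6/SvEvTac and FVB/NJ thus lay above all others in 4 of 6 brain regions, a pairing noted after the values were seen. Of all probe sets, 0.922% in the hypothalamus, 0.39% in the periaqueductal gray, 0.757% in the hippocampus and 0.13% in the bed nucleus had this pattern.

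In the amygdala Padi2 read 74.0 and 66.7 in FVB/NJ and 80.3, 38.5 and 38.4 in 129S6/SvEvTac, against 24.3 to 73.8 in the other strains. In the cingulate cortex it read 49.6 and 58.8 in FVB/NJ and 41.3 and 34.5 in 129S6/SvEvTac, against 16.7 to 51.6. The strains overlapped in both amplified tissues, where all values were low. Averaged over the 6 regions, Padi2 was 1.73-fold higher in FVB/NJ than in the mean of the other 5 strains (log2 difference 0.79, SE 0.09, adjusted p 2.54e-10 by limma) and 1.49-fold higher in 129S6/SvEvTac (0.57, SE 0.08, adjusted p 6.48e-07). FVB/NJ was above the mean of the other 5 strains in 6 of 6 regions and was the highest strain in 5 of them. 129S6/SvEvTac was the highest strain in 1 region and differed by 0.00 in the cingulate cortex. FVB/NJ and 129S6/SvEvTac did not differ by a call (-0.18 log2, interval -0.41 to 0.04, adjusted p 0.264). The other 4 strains, C3H/HeJ, C57BL/6J, A/J and DBA/2J, gave no call between any pair. Within a region and scan day, FVB/NJ was higher in 3 of 3 sets, by 0.52 to 1.75 log2, and 129S6/SvEvTac in 4 of 5, 3 of these against C57BL/6J alone. Padi1, the only related deiminase tested, differed by 0.11 log2 in FVB/NJ (adjusted p 0.601) and by 0.00 in 129S6/SvEvTac (adjusted p 0.993).

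**Figure D5:**
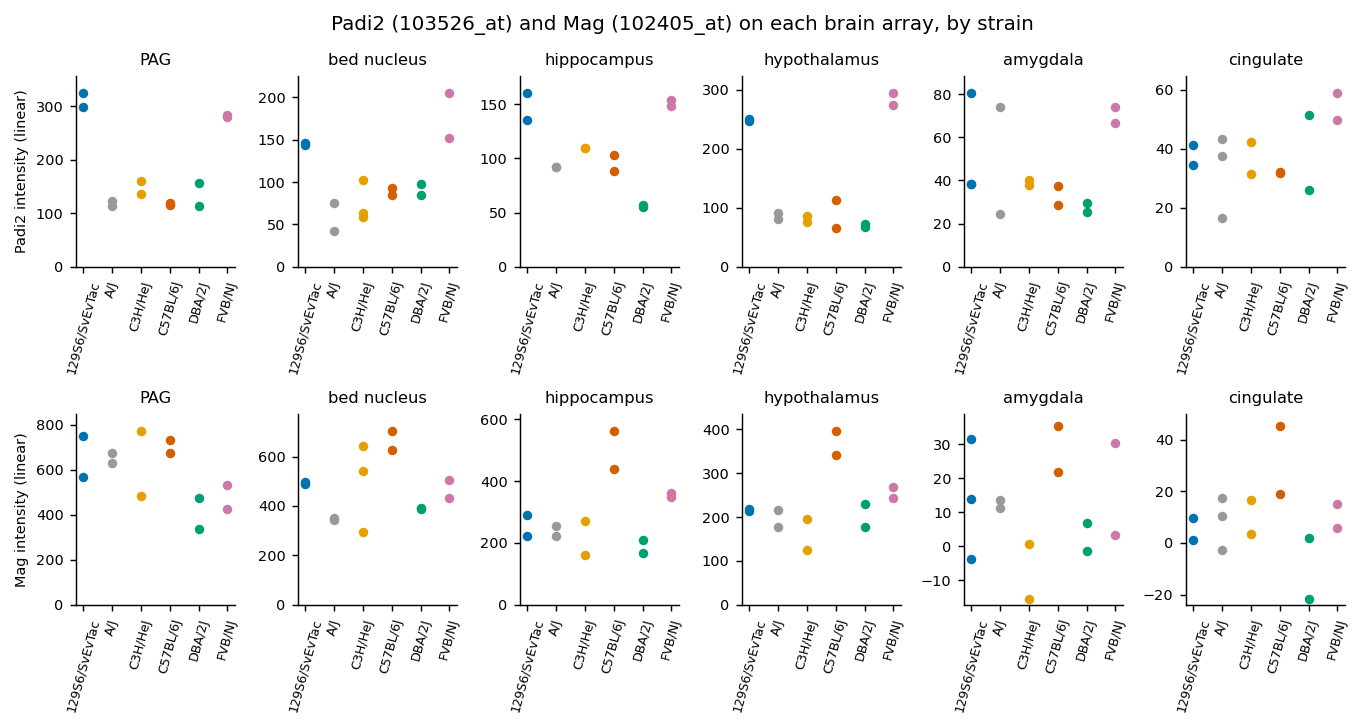
Linear intensity of Padi2 (upper panels) and Mag (lower panels) on each brain array, by strain, 1 panel per region, each with its own vertical scale. In the periaqueductal gray (PAG), bed nucleus, hippocampus and hypothalamus the 129S6/SvEvTac and FVB/NJ arrays form a separate upper group for Padi2, and the C57BL/6J arrays are uppermost for Mag in the hippocampus and hypothalamus.

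The remaining strains differed less. In FVB/NJ 1 probe set was higher (background 5.99%), that of Padi2, and none were lower (5.59%). In DBA/2J none were higher (5.9%) and 3 were lower (5.46%): Mag (-0.49 log2, SE 0.12, adjusted p 0.00382 by limma), Ugt8a (-0.29, SE 0.08, adjusted p 0.0056) and Padi2 (-0.46, SE 0.09, adjusted p 0.000101). The call of Mag was lost without the amplified regions (-0.42, adjusted p 0.0886). That of Ugt8a was lost when the average left out the cingulate cortex (-0.20, adjusted p 0.142 by limma) or the periaqueductal gray (-0.22, adjusted p 0.0796). Mag was 2.09-fold lower in DBA/2J than in C57BL/6J (adjusted p 7.99e-07). In C3H/HeJ none were higher (3.85%) and 2 were lower (4.86%), Mal (-0.32 log2, SE 0.09, adjusted p 0.0103) and Mbp A (-0.18, SE 0.05, adjusted p 0.00857), and both calls were lost with scan day as a block (adjusted p 0.0523 and 0.0759). In A/J none were higher (7.29%) and 1 was lower (7.03%), that of Padi2 (-0.37, SE 0.08, adjusted p 0.00118). Over the 15 pairs of strains 47 of 180 tests were called (background 12.5%), and 23 with scan day as a random block.

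Among replicates, 1 C3H/HeJ bed nucleus array read lower than the other 2 for most structural genes. It read 295 for Mag against 543 and 642, 1460 for Mobp B against 2899 and 3050, 331 for Mal against 459 and 425 and 215 for Mog against 291 and 307. Mbp B, at 4000 against 4072 and 4141, and Padi2, at 58.6 against 102 and 63.1, did not set it apart in the same way.

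Within single regions 14 of 84 tests among strains were called, a share close to the background (16.3%). Padi2 gave 6 of them, in every tissue but the cingulate cortex, with the smallest adjusted p in the hypothalamus (8.32e-08 by limma's F test). Ugt8a gave 3, in the amygdala, cingulate cortex and pituitary gland, Mag 1 in the amygdala, and the remaining 4, Mbp B and 3 Mobp probe sets, were in the pituitary gland, where they rest on the array labelled FVB/NJ replicate 2. On the pituitary arrays labelled FVB/NJ, Padi2 read 77.0 and 38.2, against 14.6 to 63.7 on arrays of other labels. Ugt8a read 61.4 and 53.9 there, against 8.23 to 42.3. These arrays carried the C3H/HeJ profile, so the pituitary calls cannot be assigned to the labelled strain. The calls of Ugt8a and Mag in the amplified tissues rest on intensities at or near background. The strain difference depended on the region by limma's interaction test for 2 of the 12 probe sets (background 21.3%), Ugt8a (adjusted p 0.0228) and Padi2 (adjusted p 0.0356), a share no larger than the background. With scan day as a random block neither call of limma held, and the count was 1 with an offset of 4, with quantile normalization or without the filter. For Ugt8a, DBA/2J differed from the other strains by -0.62 log2 in the periaqueductal gray, where its arrays read 94.4 and 120 against 140 to 223, but by 0.01 in the hypothalamus, where they read 82.3 and 75.1 against 54.1 to 107. For Padi2, 129S6/SvEvTac exceeded the other strains by 1.13 log2 in the hypothalamus and by 0.97 in the periaqueductal gray, against 0.21 for amygdala and 0.00 for cingulate cortex arrays.

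Deviations within groups were also set side by side. Over the 49 brain arrays labelled from 10 µg, deviations from the group mean correlated at 0.07 to 0.81 (median 0.56) in the 28 pairs among Mbp B, the 4 Mobp probe sets, Mal, Mag and Mog. With Ugt8a the 8 pairs had a median of 0.60 and with Klk6 of 0.45. Padi2 had a median of 0.14 and Mbp A of -0.08. On the amplified arrays the same 28 pairs had correlations of -0.47 to 0.84 (median 0.49), and the medians were 0.34 with Ugt8a, -0.09 with Klk6, 0.10 with Padi2 and 0.25 with Mbp A. These arrays share dissection, labelling and hybridisation, and the values are descriptions.

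Over the 24 group means of the same 4 regions, Mag (r = 0.95), Mog (0.94), Ugt8a (0.90) and the Mobp probe sets (0.88 to 0.90) followed the mean profile of the other members most closely. Mal (0.80), Klk6 (0.80) and Mbp B (0.66) followed it less, and Padi2 little (0.16). Among 6307 named genes outside the set, the 10 with the most similar profile were Myrf (0.93), Septin4 (0.92), Gab1 (0.92), Efhd1 (0.92), Gatm (0.91), Rab31 (0.90), Evi2a (0.90), Nudt4 (0.90), Qdpr (0.89) and Cerk (0.88). Myrf encodes the transcription factor that drives myelin genes and Septin4 a filament protein found in myelin. Over the 12 groups of the amplified tissues the same genes had correlations between -0.32 for Gatm and 0.70 for Evi2a, with Myrf at 0.63. The group means share the strains, the arrays and the regional order.

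Cnp and a second Mag probe set could not be used. Cnp never exceeded 38.6 on any array, its highest group mean was 16.3 and 14 arrays read 0 or less, so that its level was not measured above background in any region. The second Mag probe set read 0 or less on 86 of 87 arrays, with a lowest value of -478. Neither says that the gene was not expressed. The first Mag probe set was bright in the same RNA, and Cnp had no other probe set to compare.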

How the data were processed

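RNA of 7 tissues from 6 strains was hybridised to 87 arrays. The authors deposited 1 linear intensity per probe set and array, with 6.33% of values below 0. The unit follows from the values, and how they were scaled and with which software is not given in the sources used here. Scan days were read from the deposited experiment files. Trizol RNA from amygdala and cingulate cortex, kept in RNALater, was amplified in 2 rounds from 50 ng, per the labels' protocols. The other tissues were frozen, most by snap freezing, and labelled from 10 µg, with the number of rounds not stated.

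Negative values were set to 0 and log2(intensity + 16) was used. Of 12488 probe sets, 66 controls were left out, and 8460 of the remaining 12422 were tested because at least 1 group averaged more than 55.4, the median over all values. limma 3.58.1 in R 4.3.3 fitted 1 mean for each of the 42 groups, and p-values were adjusted by the Benjamini-Hochberg method over all 8460. Calls needed an adjusted p below 0.05, and for tissues a fold of 2 or more was also counted. Strains were averaged over the 6 brain regions. Intervals are 95% from the moderated t distribution. The pipeline was tested on simulated data. Alternatives changed the offset, scaling, filter, blocks and arrays. All probe sets of the members were named, of other lists up to 4 tested genes with the largest difference, and the 10 genes most alike in profile. Car2, Cldn11 and Erbb3, named for 1 pituitary array, were chosen after their values were seen. The members and lists were chosen with earlier results of these data known. The number of arrays limits the precision. Of the 87 arrays 74 share a first-named mouse with another array, of the same or another tissue, and 2 groups name the same mice in both arrays, so p-values measure the spread between arrays. Promoter windows came from RefSeq (GRCm38.p6). The probe set annotated to the gene Mpv17, whose symbol is also a synonym of Mal, was not counted as a member.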

Additional observations from a re-analysis of the deposited data

Results flagged for a closer look

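For 2 of the 12 tested probe sets, the difference among strains depended on the brain region by the interaction test of limma. The adjusted p was 0.0228 for Ugt8a and 0.0356 for Padi2. Ugt8a in DBA/2J differed from the other strains by -0.75 log2 in the cingulate cortex, where its intensities were 3.23 and -8.74, and by 0.01 log2 in the hypothalamus. Padi2 in FVB/NJ differed by 1.34 log2 in the hypothalamus and by 0.46 in the cingulate cortex, where intensities of all strains were low. Of all probe sets tested, 21.3% gave such a call, a larger share than among the 12. With scan day as a random block neither call held.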

How the results depend on the processing

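No value of the 71 called for a named probe set changed sign under any alternative. With an offset of 64, 75th percentile scaling, the first-named animal as a block or without the 4 pituitary arrays of doubtful label, all 71 kept their side of the threshold. It was lost by 17 with scan day as a random block (correlation 0.366), 13 with an offset of 4 and 3 each with quantile normalization, no filter and the number of scans as a term. Without replicate 1 it was lost by 45 and without replicate 2 by 37, with 3 residual degrees of freedom left. The count of probe sets differing among strains was 6 with the scan day block and 7 without the cingulate cortex in the average. In 129S6/SvEvTac the count was 5 with an offset of 64 and 1 without the amplified regions. In C3H/HeJ it was 0 with the scan day block and 1 without the amplified regions or without the hypothalamus. Calls over pairs of strains numbered 23 with the scan day block. Calls within regions numbered 27 with an offset of 64. Interaction calls numbered 1 with an offset of 4, quantile normalization, no filter or the number of scans as a term, 0 with the scan day block and 4 without the pituitary array labelled FVB/NJ replicate 2. Calls at 2-fold over the 4 brain regions numbered 1 with an offset of 64. Leaving out 1 replicate number, or that pituitary array, gave 0 to 11 probe sets among strains, 0 to 4 in 129S6/SvEvTac, 0 to 1 in A/J, 1 to 9 in C57BL/6J, 0 to 2 in C3H/HeJ, 0 to 4 in DBA/2J, 0 to 1 in FVB/NJ, 3 to 56 over pairs, 0 to 20 within regions, 0 to 4 for the interaction, 2 at 2-fold over the 4 brain regions, 11 in the pituitary gland and 0 in the amygdala. Leaving out replicate 1 or 2 left most groups with 1 array, assumed to vary like the others. The replicate block gave counts of 11 among strains, 2 in 129S6/SvEvTac, 1 in A/J, 8 in C57BL/6J, 2 in C3H/HeJ, 3 in DBA/2J, 1 in FVB/NJ, 49 over pairs, 15 within regions, 2 for the interaction, 2, 11 and 0 for the tissues, and it took the call of Mobp A in 129S6/SvEvTac (-0.28 log2, adjusted p 0.057). Replicate numbers did not pair the samples: same-numbered arrays had deviations correlated at -0.38 to 0.26 over 126 pairs, 20 above 0.1. Scan day as a fixed term could not be estimated and was not run. The cause of the lost calls was not tested. Dim probe sets (Ugt8a, Mag and Mobp C on amplified arrays, Klk6 in the hippocampus) were limited by signal over background.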
